A study of Arabidopsis thaliana with 36 samples.

Results

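The 26S proteasome subunits of Arabidopsis thaliana, with the transcription factors NAC53 and NAC78, were followed in leaves and roots of cadmium-treated plants. They are 43 genes of the 28775 in the deposited count table: 7 alpha and 7 beta subunits of the 20S core, 10 RPT and 17 RPN subunits of the 19S cap, and both regulators. Members were chosen by locus code for their role, in a series whose results were already known, so counts and medians over them are given as descriptions beside the same over all genes. The rule has no threshold on a value, and the adjusted p-values printed for members describe single genes and support nothing about the choice. For many subunits a further gene copy exists in the genome. Those copies that are not members were described apart, with DSS1a and DSS1b, the 2 genes of DSS1, which has no member.

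RNA sequencing compared wild type (Col-0) with opt3-2, a mutant of OPT3, the gene of an iron transporter of the phloem. The 4 groups were wild type shoots, opt3-2 shoots, wild type roots and opt3-2 roots, with 3 biological replicates each. All plants had received 20 µM CdCl2 for 72 h after 11 d on plates and 22 d in hydroponic medium, and each sample held RNA of 3 to 4 plants. Untreated plants were not analysed here, so each difference is one between genotypes or tissues under cadmium and none measures the effect of cadmium.

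The 26S proteasome is the main protease for ubiquitin-tagged proteins in the cytosol and nucleus. Its 20S core is a barrel of alpha rings, which gate the entry, and beta rings, which hold the proteolytic sites. The 19S cap binds, unfolds and feeds the substrate: its RPT subunits are ATPases and its RPN subunits are scaffolds, ubiquitin receptors and a deubiquitinase. In Arabidopsis, NAC53 and NAC78 are known to switch on proteasome genes together when proteasome capacity falls short, through a promoter element whose core is TGGGC, the proteasome-related cis-element.

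To show what that core looks like in front of these genes, 130 bases before or close to the annotated start are printed for 7 members, 5 with the core and 2 without. The sequences were read 5′ to 3′ on the strand of the gene from the RefSeq genome of assembly TAIR10.1. Capitals mark each TGGGC or its reverse complement GCCCA. PAD1 (chr3:19030796-19030925, plus strand) was the alpha subunit with the largest rise in opt3-2 roots, and PBA1 (chr4:15188614-15188743, plus strand) encodes a catalytic beta subunit. RPT3 (chr5:23568922-23569051, plus strand) and RPN8a (chr5:1735595-1735724, plus strand) stand for the cap, and RPN9b (chr4:10411471-10411600, minus strand) had the lowest fold change of the members in opt3-2 shoots. PAG1 (chr2:11531179-11531308, minus strand) fell in shoots and rose in roots with no core in its window, and RPT5a (chr3:1603229-1603358, plus strand), also with none, was the member nearest to 0 over both tissues.
PAD1: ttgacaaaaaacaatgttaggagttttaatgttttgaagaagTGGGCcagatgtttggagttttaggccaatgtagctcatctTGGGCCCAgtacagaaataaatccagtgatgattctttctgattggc
PBA1: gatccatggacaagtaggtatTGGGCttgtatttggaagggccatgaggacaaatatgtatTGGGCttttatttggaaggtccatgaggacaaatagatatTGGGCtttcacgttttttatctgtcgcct
RPT3: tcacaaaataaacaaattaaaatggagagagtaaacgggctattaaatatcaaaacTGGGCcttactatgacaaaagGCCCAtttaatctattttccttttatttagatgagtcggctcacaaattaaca
RPN8a: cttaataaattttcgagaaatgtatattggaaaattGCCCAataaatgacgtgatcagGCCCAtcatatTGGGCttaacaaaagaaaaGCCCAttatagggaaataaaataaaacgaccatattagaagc
RPN9b: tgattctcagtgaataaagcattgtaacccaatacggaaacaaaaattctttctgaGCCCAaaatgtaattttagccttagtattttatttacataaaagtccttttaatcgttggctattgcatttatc
PAG1: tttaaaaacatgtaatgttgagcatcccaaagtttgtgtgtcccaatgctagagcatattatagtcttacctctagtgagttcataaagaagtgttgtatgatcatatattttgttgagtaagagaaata
RPT5a: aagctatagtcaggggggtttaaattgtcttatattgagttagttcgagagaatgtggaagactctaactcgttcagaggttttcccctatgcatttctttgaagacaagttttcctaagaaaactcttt

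In PBA1 the core was repeated 3 times on the plus strand of the gene, 109, 69 and 29 bases before the start, at a spacing of 40 bases. RPN8a held 4 cores between 94 and 42 bases before its start. RPN9b held a further core 3 bases before its start, outside the printed stretch. In PAD1 the palindrome TGGGCCCA counted as 2 overlapping matches. Over the window from 250 bases before to 50 bases after the start, 25 of the 41 subunit genes (61.0%) held TGGGC on either strand, against 26.0% of 27443 protein-coding genes. The share was 7 of 7 for beta, 4 of 7 for alpha, 5 of 10 for RPT and 9 of 17 for RPN subunits, and neither NAC53 nor NAC78 held it. The element was first described in promoters of proteasome genes, so this share is not independent evidence for it. A match is a description of letters and not a bound site.

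The 12 libraries, summed over technical replicates, held 21262406 to 36484138 counts. In roots depth separated by genotype, with 35523985 to 36484138 counts in wild type and 22449113 to 25141843 in opt3-2. Values are CPM (each count divided by the scaled size of its library). Tests are edgeR's quasi-likelihood F test over 21887 genes, and "rose" or "fell" stands for a Benjamini-Hochberg adjusted p below 0.05. All 43 members passed the filter on low counts, and the lowest count of a subunit in any library was 244. The libraries of the 2 genotypes did not overlap for 53.0% of all genes tested in shoots and 53.2% in roots. For the 41 subunits this held for 28 in shoots and 33 in roots. Lack of overlap is thus common here and is given as a description of single genes. OPT3 fell from a mean of 354 to 21.7 CPM in shoots and from 42.6 to 5.90 CPM in roots. Leaf markers (4 genes) summed to 13720 to 19120 CPM in shoots and at most 96.3 CPM in roots. Root markers (4 genes) summed to at least 2093 CPM in roots and at most 85.3 CPM in shoots.

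In opt3-2 the proteasome subunits were lower in shoots and higher in roots than in wild type. In shoots 25 of the 41 subunits fell and 0 rose, where 22.6% of all genes tested fell and 21.3% rose. The median log2 fold change of the subunits was -0.18, and that of all genes -0.00. In roots 30 subunits rose and 0 fell, where 17.5% of all genes rose and 21.5% fell. The median was 0.22 for the subunits and -0.01 for all genes. Of the 41, 18 both fell in shoots and rose in roots, 7 passed the test in shoots and not in roots, 12 in roots and not in shoots, and PAC1, RPT5a, RPT5b and RPN13 in neither. With relative log expression scaling, 2 subunits rose in shoots (RPT5b and RPT6b, each by 0.15 on the log2 scale) and 20 fell.

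The 41 member subunits added together show the same in every sample. Their summed level was 3925, 3671 and 3742 CPM in the wild type shoot libraries and 3365, 3468 and 3335 CPM in opt3-2 shoots, a ratio of 0.897. It was 3848, 3788 and 3653 CPM in wild type roots and 4207, 4373 and 4437 CPM in opt3-2 roots, a ratio of 1.15. In neither tissue did the genotypes overlap. The 15 non-member subunit genes, DSS1a and DSS1b among them, summed to 0.947 of the wild type level in shoots and 0.996 in roots. The core and the cap differed in shoots, where the core stood at 0.851 and the cap at 0.918 of the wild type level, and were close in roots, at 1.16 and 1.15. No test was made of that difference.

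**Figure D1:**
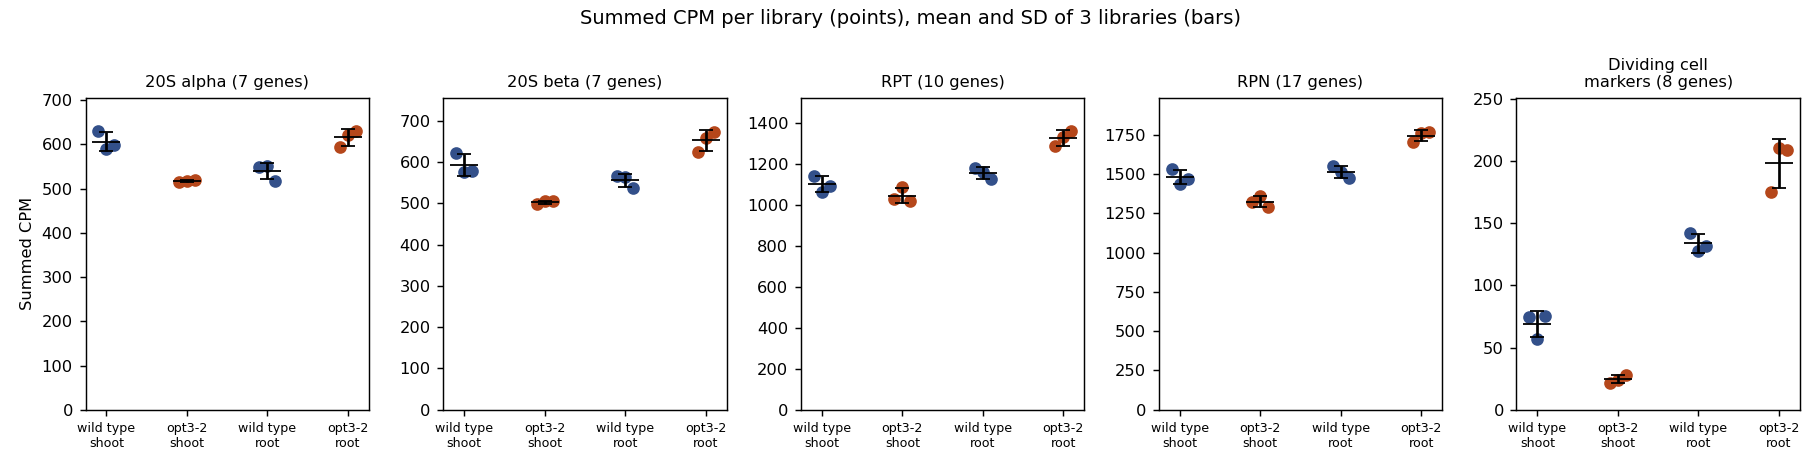
Summed CPM of the members of each subcomplex, and of 8 markers of dividing cells, in each of the 12 libraries (points), with the mean and SD of 3 libraries (black bars). In each subcomplex the highest mean is that of opt3-2 roots, and the beta sums in opt3-2 shoots (497 to 504 CPM) lie below all other libraries of that sum.

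Markers of dividing cells moved the same way as the subunits. Among the 8 genes (PCNA1, PCNA2, MCM2, MCM5, CYCB1;1, CDKB1;1, CDKB2;1 and KNOLLE), 7 fell in shoots and 7 rose in roots. Their summed level was 56.6 to 75.6 CPM in wild type and 21.7 to 28.2 CPM in opt3-2 shoots, and 128.0 to 142.4 CPM in wild type and 175.4 to 210.4 CPM in opt3-2 roots. No marker was at 0 in any library. Their part in the subunits' differences was not tested. In such bulk samples, fewer cells of a type and less RNA per cell cannot be told apart.

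Alpha subunits form the outer rings of the core. In shoots 4 of 7 fell, with a median log2 fold change of -0.26, and in roots 5 of 7 rose, with a median of 0.20. PAG1 (AT2G27020) had the lowest value in shoots. Its level was 103, 90.5 and 90.7 CPM in wild type and 68.5, 66.0 and 73.3 CPM in opt3-2 shoots, groups that do not overlap (log2 fold change -0.45 ± 0.07, standard error (SE), adjusted p = 0.000238). In roots it was 100, 97.8 and 89.7 CPM in wild type and 111, 113 and 117 CPM in opt3-2, and it rose by 0.24 ± 0.07 on the log2 scale (adjusted p = 0.0115). Every opt3-2 root library was above every wild type root library, and PAG1 thus moved in opposite directions in the tissues.

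PAD1 (AT3G51260) moved most in roots. Its level was 82.2, 79.5 and 75.0 CPM in wild type roots and 98.4, 103 and 101 CPM in opt3-2 roots (log2 fold change 0.35 ± 0.06, adjusted p = 0.000472). In shoots it was 111, 98.3 and 106 CPM in wild type and 84.2, 82.5 and 85.4 CPM in opt3-2 (-0.32 ± 0.06, adjusted p = 0.000701). The genotypes did not overlap in either tissue, and the opt3-2 root libraries stood at about the wild type shoot level. PAF1 (AT5G42790) fell in shoots, from 115, 114 and 112 to 95.7, 87.9 and 92.9 CPM (-0.31 ± 0.05, adjusted p = 0.000531), and in roots its log2 fold change was 0.05 ± 0.05 (adjusted p = 0.483). For PAF1 the root difference minus the shoot difference was 0.35 ± 0.07 (adjusted p = 0.00161). PAC1 (AT3G22110) stood apart, as it had 102, 108 and 92.1 CPM in wild type and 101, 111 and 96.1 CPM in opt3-2 shoots, which overlap, and log2 fold changes of 0.03 ± 0.07 and 0.09 ± 0.07 (adjusted p = 0.799 and 0.344).

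Beta subunits form the inner rings. All 7 fell in shoots, with a median of -0.27 and a range of -0.42 to -0.16, and 6 of 7 rose in roots, with a median of 0.23. The 3 catalytic positions were alike: PBA1, PBB1 and PBE1 had log2 fold changes of -0.31 ± 0.05, -0.27 ± 0.05 and -0.18 ± 0.05 in shoots. In roots they were 0.26 ± 0.05, 0.23 ± 0.05 and 0.15 ± 0.05 (adjusted p of 0.0401 or less in all 6 cases). PBA1 (AT4G31300) itself ran from 102 to 111 CPM in wild type and from 82.5 to 86.0 CPM in opt3-2 shoots, and from 97.8 to 103 and from 115 to 125 CPM in roots.

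PBD1 (AT3G22630), a structural beta subunit, was the lowest in shoots and the 1 beta subunit of 7 that did not pass the test in roots. It had 35.7, 34.8 and 32.3 CPM in wild type and 24.9, 25.9 and 26.1 CPM in opt3-2 shoots (-0.42 ± 0.05, adjusted p = 0.000104), with no overlap. In roots the 6 libraries ran from 30.4 to 32.2 CPM, and the groups overlapped (0.03 ± 0.05, adjusted p = 0.744). The root minus the shoot difference of PBD1 was 0.44 ± 0.08 (adjusted p = 0.000569). PBG1 (AT1G56450) had the largest rise in roots, from 89.8, 88.7 and 84.3 to 107, 109 and 115 CPM (0.33 ± 0.05, adjusted p = 0.000250). PBF1 (AT3G60820) had the smallest fall in shoots, from 122, 111 and 112 to 102, 104 and 103 CPM (-0.16 ± 0.06, adjusted p = 0.0432). Its call was lost under 13 alternative settings, 8 of which left out 1 library, with log2 values from -0.18 to -0.11.

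RPT subunits are the ring of ATPases at the base of the cap. They were the most mixed group: 5 of 10 fell in shoots (median -0.13) and 6 of 10 rose in roots (median 0.25). The RPT5 copies passed in neither tissue. RPT5a (AT3G05530), among the most abundant subunits, had 174, 180 and 166 CPM in wild type and 180, 179 and 163 CPM in opt3-2 shoots, and 198, 200 and 203 against 199, 194 and 208 CPM in roots. The genotypes overlapped in both tissues, with log2 fold changes of 0.01 ± 0.06 and -0.00 ± 0.06. RPT5b (AT1G09100) had log2 fold changes of 0.11 ± 0.06 and -0.01 ± 0.06 (adjusted p = 0.156 and 0.872).

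**Figure D2:**
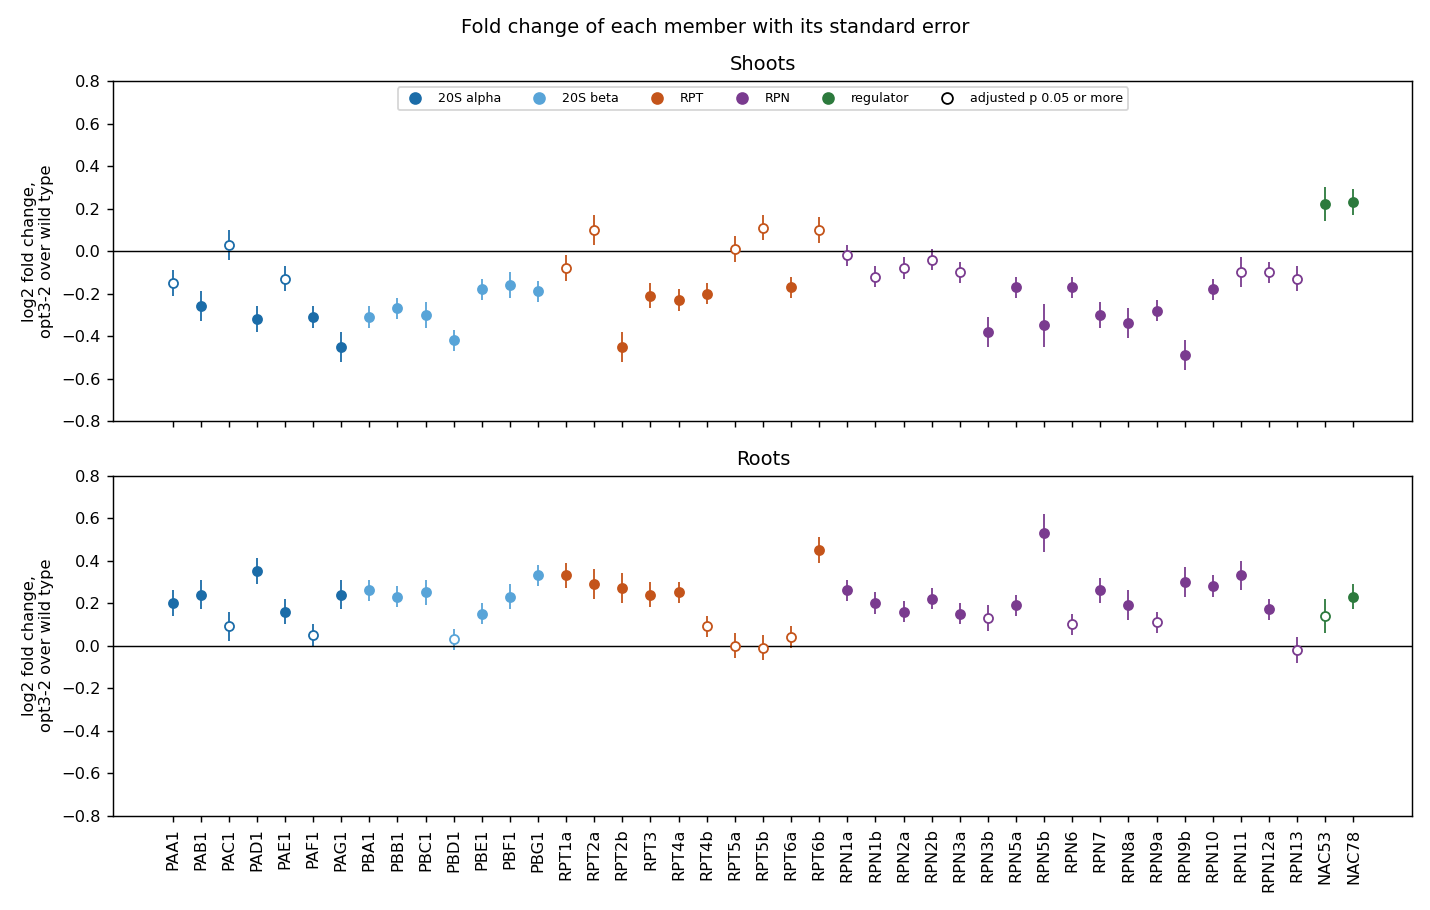
The log2 fold change (opt3-2 over wild type) of each of the 43 members in shoots (upper) and roots (lower), with its SE. Filled points passed an adjusted p of 0.05 and open points did not. Beta subunits are all filled and below 0 in shoots, no subunit is filled above 0 in shoots or below 0 in roots, and the RPT5 copies and RPN13 lie near 0 in roots.

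The copies of RPT2 and RPT6 differed from each other. RPT2b (AT2G20140) had 50.5, 41.9 and 46.6 CPM in wild type and 34.1, 33.3 and 34.6 CPM in opt3-2 shoots (-0.45 ± 0.07, adjusted p = 0.000466), whereas RPT2a (AT4G29040) had 199, 175 and 196 against 190, 215 and 206 CPM (0.10 ± 0.07, adjusted p = 0.288). This was the pair of members that differed most in shoots, by 0.54 on the log2 scale, a difference between copies that was not tested. In roots both rose, RPT2a by 0.29 ± 0.07 and RPT2b by 0.27 ± 0.07 (adjusted p = 0.00659 and 0.00998), a call that RPT2b lost with technical replicate 1 alone (0.20). RPT2 is one of the ATPases whose tail helps to open the gate of the core.

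RPT6a (AT5G19990) and RPT6b (AT5G20000) are neighbours on chromosome 5 and the most alike pair of copies, with 94.4% of coding bases identical, so reads could be split between them in a way the deposited counts do not show. In roots RPT6b rose from 43.1, 42.5 and 41.3 to 55.7, 56.7 and 60.8 CPM (0.45 ± 0.06, adjusted p = 8.99e-05). RPT6a had 92.5, 89.5 and 86.7 against 89.5, 91.1 and 95.2 CPM (0.04 ± 0.05, adjusted p = 0.584), which overlap. In shoots RPT6a fell from 84.8, 84.4 and 89.3 to 74.8, 79.6 and 74.6 CPM (-0.17 ± 0.05, adjusted p = 0.0149), and RPT6b had a log2 fold change of 0.10 ± 0.06 (adjusted p = 0.179). The fall of RPT6a did not pass without wild type shoot replicate 3 (-0.15), without opt3-2 shoot replicate 1 (-0.16) or with relative log expression scaling (-0.13).

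RPN subunits make up the rest of the cap. In shoots 9 of 17 fell, with a median of -0.17, and in roots 13 of 17 rose, with a median of 0.19. The large scaffold subunits RPN1 and RPN2 of the base were nearly level in shoots (log2 fold changes of -0.12 to -0.02 over 4 genes, none called) and all 4 rose in roots (0.16 to 0.26). RPN1a (AT2G20580) had 186, 174 and 170 CPM in wild type and 173, 174 and 176 CPM in opt3-2 shoots, which overlap. In roots it rose from 137, 139 and 134 to 160, 167 and 165 CPM (0.26 ± 0.05, adjusted p = 0.00138).

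The ubiquitin receptors RPN10 and RPN13 differed. RPN10 (AT4G38630) fell in shoots (-0.18 ± 0.05, adjusted p = 0.0112) and rose in roots, from 121, 118 and 114 to 138, 145 and 146 CPM (0.28 ± 0.05, adjusted p = 0.000776). RPN13 (AT2G26590) had 37.8, 40.2 and 35.7 against 36.5, 33.3 and 34.0 CPM in shoots and 43.6, 41.9 and 42.3 against 42.5, 41.0 and 42.1 CPM in roots. It passed the test in neither (-0.13 ± 0.06 and -0.02 ± 0.06, adjusted p = 0.0877 and 0.768), though it fell in shoots with wild type shoot replicate 3 left out (-0.18). RPN11 (AT5G23540), the deubiquitinase of the lid, rose in roots from 112, 104 and 103 to 127, 134 and 138 CPM (0.33 ± 0.07, adjusted p = 0.00293), and in shoots its log2 fold change was -0.10 ± 0.07 (adjusted p = 0.257).

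Among the structural lid subunits, RPN9b (AT4G19006) had the lowest fold change of the 41 subunit members in shoots. It had 51.8, 45.3 and 51.2 CPM in wild type and 33.7, 34.6 and 37.5 CPM in opt3-2 shoots (-0.49 ± 0.07, adjusted p = 0.000190), and 45.6, 42.6 and 40.6 against 50.7, 53.9 and 53.4 CPM in roots (0.30 ± 0.07, adjusted p = 0.00502). The genotypes did not overlap in either tissue. RPN5b (AT5G64760), the rarest of the 41 subunit members, had the largest rise among them in roots: it went from 17.6, 16.5 and 15.2 to 22.4, 24.9 and 23.8 CPM (0.53 ± 0.09, adjusted p = 0.00103). In shoots it fell from 17.8, 15.8 and 20.7 to 14.3, 13.6 and 14.7 CPM (-0.35 ± 0.10, adjusted p = 0.0126), a call that was lost without wild type shoot replicate 3 (-0.24) and with technical replicate 1 alone (-0.30).

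The regulators did not follow the subunits in shoots, while in roots NAC78 rose as most subunits did. NAC53 (AT3G10500) had 29.3, 27.1 and 31.6 CPM in wild type and 32.7, 35.2 and 34.6 CPM in opt3-2 shoots (0.22 ± 0.08, adjusted p = 0.0400), with no overlap. In roots it had 104, 89.7 and 109 against 114, 109 and 110 CPM (0.14 ± 0.08, adjusted p = 0.165), and the highest wild type library reached the opt3-2 range. The shoot call did not pass without wild type shoot replicate 1 (0.22) or 2 (0.17), opt3-2 shoot replicate 2 (0.20) or 3 (0.21), or opt3-2 root replicate 2 or 3 (0.22 each). It was also lost with library size alone (0.14) and with technical replicate 1 alone (0.18).

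NAC78 (AT5G04410) was higher in opt3-2 in both tissues. In shoots it rose from 98.6, 94.6 and 96.3 to 114, 119 and 108 CPM (0.23 ± 0.06, adjusted p = 0.00807), and in roots from 104, 106 and 116 to 136, 123 and 125 CPM (0.23 ± 0.06, adjusted p = 0.00934). The genotypes did not overlap in either tissue. The root difference minus the shoot difference was -0.00 ± 0.09 for NAC78 and -0.08 ± 0.11 for NAC53 (adjusted p = 1 and 0.573), where the subunits had a median of 0.39. Between tissues the regulators differed from each other: NAC53 was 1.78 ± 0.08 higher on the log2 scale in wild type roots than in wild type shoots (adjusted p = 4.17e-10), and NAC78 0.17 ± 0.06 (adjusted p = 0.0193). NAC53 made up 23.3% of the CPM of the pair in wild type shoots and 48.1% in wild type roots.

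**Figure D3:**
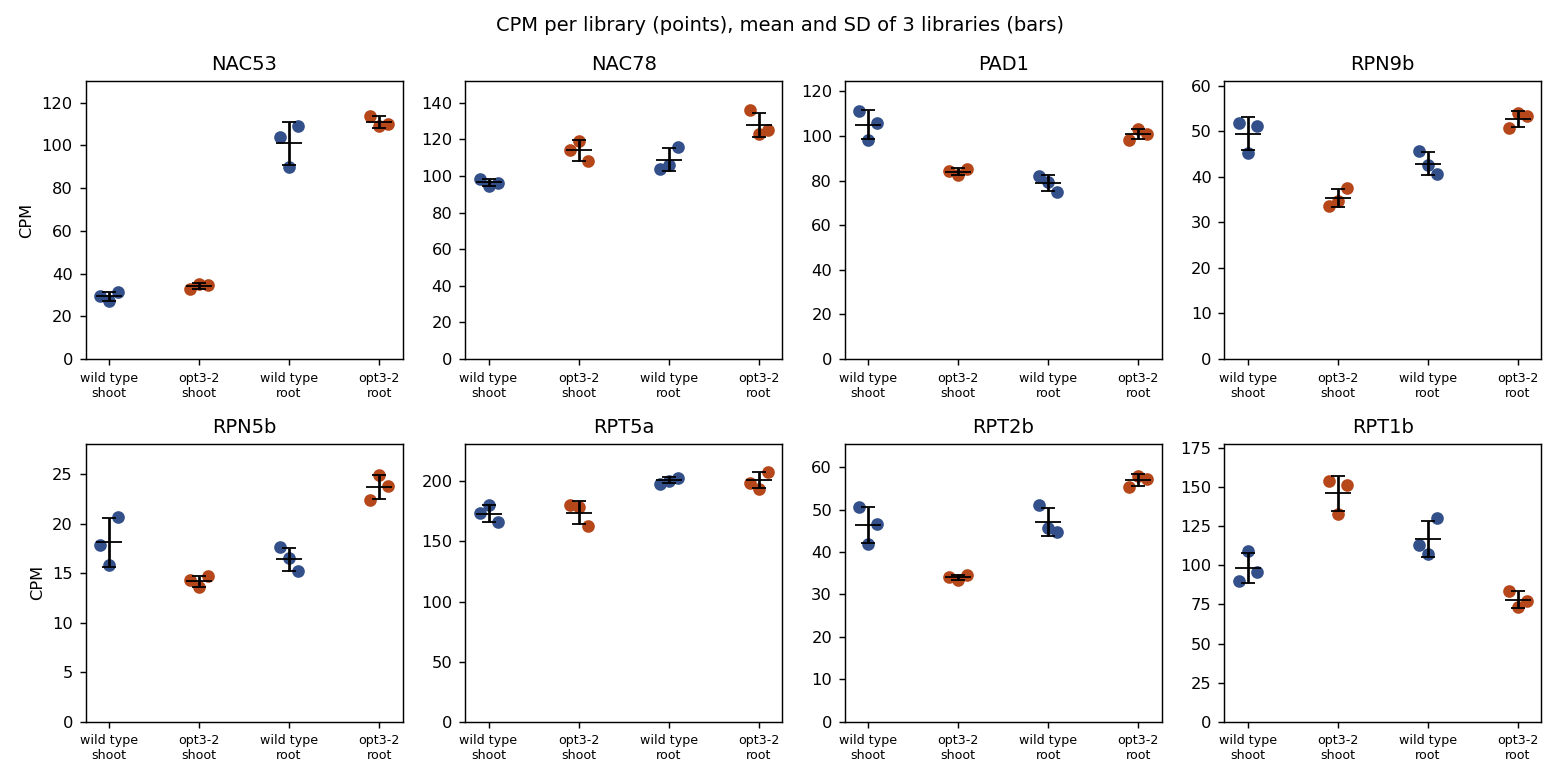
CPM in each of the 12 libraries (points), with the mean and SD of 3 libraries (black bars), for NAC53, NAC78, 5 subunit members and RPT1b, a copy that is not a member. NAC78 is higher in opt3-2 in both tissues, PAD1, RPN9b, RPN5b and RPT2b are lower in opt3-2 shoots and higher in opt3-2 roots, RPT5a is level between genotypes, and RPT1b runs the other way.

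The difference between the tissues was tested as the root difference minus the shoot difference. It was above 0 and called for 36 of the 41 subunits and below 0 and called for 0, where 24.2% of all genes were called higher and 24% lower. The median was 0.39 for the subunits, against 0.00 over all genes. By subcomplex, 6 of 7 alpha, 7 of 7 beta, 7 of 10 RPT and 16 of 17 RPN subunits were called. RPN5b had the largest value (0.88 ± 0.14, adjusted p = 0.000268), followed by RPN9b (0.78 ± 0.10, adjusted p = 5.88e-05), RPT2b (0.72 ± 0.10, adjusted p = 0.000143), PAG1 (0.69 ± 0.09, adjusted p = 0.000100) and PAD1 (0.68 ± 0.08, adjusted p = 3.90e-05). The 5 subunits not called were PAC1, RPT2a, RPT5a, RPT5b and RPN13, with values from -0.12 to 0.19. RPT2a was called without wild type shoot replicate 2 (0.25). The interaction shares its libraries with both genotype comparisons.

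**Figure D4:**
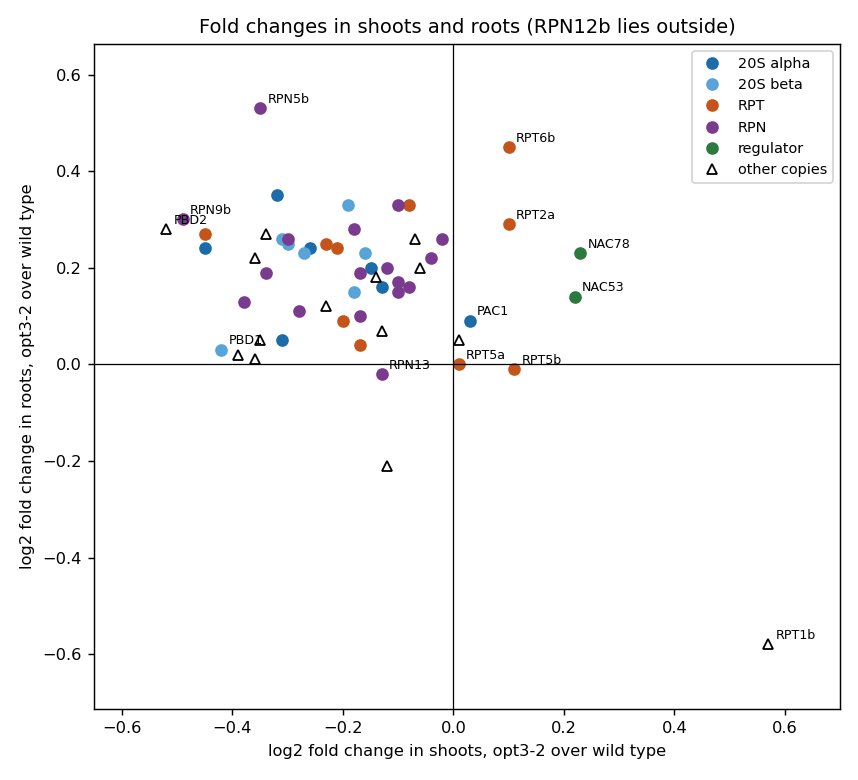
The log2 fold change, opt3-2 over wild type, in shoots (horizontal) and in roots (vertical). Circles are the 43 members, by subcomplex, and open triangles are 14 other subunit genes, DSS1a and DSS1b among them. RPN12b, with under 1 CPM in every library, is not drawn. Most subunits lie in the upper left, NAC53 and NAC78 lie in the upper right, and RPT1b lies alone at the lower right.

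Within wild type the subunits were about level between tissues: 10 were higher in roots (39.5% of all genes) and 9 lower (38.6% of all genes), with a median log2 difference of 0.02. Without wild type root replicate 1, 5 were higher and 7 lower. RPT3 stood 0.31 ± 0.06 higher in roots (adjusted p = 0.000537), while PAC1 and PAD1 stood at -0.41 ± 0.07 and -0.41 ± 0.06 (adjusted p = 0.000193 and 2.06e-05). Within opt3-2, 37 subunits were higher in roots (43.6% of all genes) and 2 lower (41% of all genes), with a median of 0.40. The summed level of roots over shoots was 0.996 in wild type and 1.28 in opt3-2. With library size alone, 35 subunits were higher in wild type roots and 0 lower. That scaling moved the median of all genes by over 0.1 in these tissue comparisons, to 0.37 in wild type and 0.48 in opt3-2.

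Levels between subunits were compared per kilobase of exon, with the copies of a subunit added up. In wild type shoots the 7 alpha positions ran from 69.8 CPM per kilobase (PAG) to 140 (PAA), with a median of 86.1, and the 7 beta positions from 68.1 (PBG) to 104 (PBF), with a median of 89.6. The 6 RPT positions ran from 59.0 (RPT6) to 143 (RPT2), and the 12 RPN positions from 19.6 (RPN13) to 78.8 (RPN11). RPN13 was the lowest position in all 4 groups. In opt3-2 shoots the beta median was 72.5 and in opt3-2 roots 103 CPM per kilobase. With the counts of copies summed before the fit, an alternative chosen after seeing the data, 22 of 33 positions fell and 1 rose in shoots. The 33 include DSS1, which has no member and is among the falls (-0.22 ± 0.07, adjusted p = 0.022). In roots 23 rose and 0 fell. The position that rose in shoots was RPT1 (0.17 ± 0.05, adjusted p = 0.0187). Of the 6 RPT positions, RPT3 and RPT4 fell in shoots, and RPT2, RPT5 and RPT6 did not pass the test there.

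The 15 further subunit genes, a list chosen with earlier results known, were more mixed than the members. They include DSS1a and DSS1b, which are not copies of a member, and DSS1b is among the falls in shoots. In shoots 7 fell (46.7%) and 1 rose (6.67%), where 22.6% of all genes fell and 21.3% rose. In roots 6 rose (40%) and 2, RPT1b and DSS1a, fell (13.3%), where 17.5% of all genes rose and 21.5% fell. The rises in roots include RPN12b, at under 1 CPM, and for DSS1a the genotypes overlapped in roots. PBD2 (AT4G14800), the second copy of PBD, fell in shoots from 49.9, 42.6 and 43.2 to 32.2, 29.9 and 32.5 CPM (-0.52 ± 0.08, adjusted p = 0.000404). In roots it rose by 0.28 ± 0.08 on the log2 scale (adjusted p = 0.0172), while PBD1 did not pass. That rise was lost without wild type root replicate 2 (0.27), opt3-2 root replicate 2 (0.22) or opt3-2 root replicate 3 (0.25). PAF2 (AT1G47250) fell in shoots (-0.39 ± 0.06, adjusted p = 0.000329), although 65.1% of its exon bases overlap an antisense gene and the use of strand in counting is not stated. PAB2 (AT1G79210) rose in roots (0.26 ± 0.06, adjusted p = 0.00329).

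RPT1b (AT1G53780) was the 1 copy of the list that rose in shoots. It went there from 90.0, 109 and 95.8 to 154, 133 and 151 CPM (0.57 ± 0.09, adjusted p = 0.000495) and in roots from 113, 107 and 130 to 83.8, 73.2 and 76.9 CPM (-0.58 ± 0.09, adjusted p = 0.000528). The genotypes did not overlap in either tissue. Its partner RPT1a had a log2 fold change of -0.08 ± 0.06 in shoots (adjusted p = 0.279) and rose by 0.33 ± 0.06 in roots (adjusted p = 0.000898). RPT1a held 67.1% ± 3.01 of the CPM of the pair in wild type shoots and 56.5% ± 3.12 in opt3-2 shoots, and 63.5% ± 2.67 and 76.6% ± 1.63 in roots (SD, n = 3). Over the 22 pairs of subunit copies, the share of the first copy varied between groups by a median of 4.55 percentage points, and by 20.1 points for RPT1, the widest of the 22. Coding bases of the pairs were 80.3% to 94.4% identical.

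Other genes of the pathway are read against the shares of all genes, of which 21.3% rose and 22.6% fell in shoots and 17.5% rose and 21.5% fell in roots. Of 4 measured assembly and capping factors, 1 rose and 1 fell in shoots (25% each), and 2 rose in roots (50%). UMP1a (AT1G67250), a chaperone of core assembly, fell in shoots and rose in roots like the core subunits (-0.20 ± 0.06 and 0.20 ± 0.06, adjusted p = 0.0161 in each). Its shoot call was lost without opt3-2 shoot replicate 1 (-0.17) and with DESeq2 (-0.16). Its root call was lost without wild type root replicate 3 (0.16), opt3-2 root replicate 2 (0.18) or 3 (0.19), and with technical replicate 1 alone (0.16). ECM29 (AT2G26780), a proteasome-associated scaffold, rose in shoots (0.22 ± 0.05, adjusted p = 0.00304), and PA200 (AT3G13330), an alternative cap, rose in roots (0.21 ± 0.07, adjusted p = 0.0233). The ECM29 call was lost with library size alone (0.13). The PA200 call was lost without wild type root replicate 1 (0.21) or 2 (0.20) and without opt3-2 root replicate 1 (0.16) or 2 (0.22). UMP1b was listed at 0 in every library, and 93.4% of its exon bases overlap another gene.

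Of 13 shuttle factors, CDC48 segregases, deubiquitinases and related receptors, 4 rose (30.8%) and 2 fell (15.4%) in shoots and 4 rose in roots (30.8%), shares in shoots that are near those of all genes. DDI1 (AT3G13235), a shuttle factor, fell in shoots (-0.24 ± 0.06, adjusted p = 0.00678) and rose in roots from 42.5, 40.4 and 42.4 to 53.2, 54.5 and 57.3 CPM (0.40 ± 0.06, adjusted p = 0.000274). NBR1, a receptor of selective autophagy, rose in shoots (0.35 ± 0.07, adjusted p = 0.00162), and DSK2A rose in roots (0.21 ± 0.04, adjusted p = 0.00311). CDC48B (AT3G53230), a copy of the segregase, rose in shoots from 12.4, 13.0 and 12.9 to 29.0, 26.6 and 19.9 CPM (0.98 ± 0.11, adjusted p = 3.51e-05).

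Of 7 ubiquitin and E1 genes, 2 rose (28.6%) and 1 fell (14.3%) in shoots, near the shares of all genes, and 3 rose in roots (42.9%). UBA1 (AT2G30110), a ubiquitin-activating enzyme, fell in shoots and rose in roots (-0.14 ± 0.05 and 0.24 ± 0.05, adjusted p = 0.0424 and 0.00387). The shoot call of UBA1 was lost under 15 alternative settings, 9 of which left out 1 library, with log2 values from -0.16 to -0.10. The polyubiquitin genes UBQ3 and UBQ4 rose in shoots (0.68 ± 0.11 and 0.18 ± 0.05, adjusted p = 0.000499 and 0.0189), and UBQ14 rose in roots (0.28 ± 0.06, adjusted p = 0.00240). The UBQ4 call was lost without wild type shoot replicate 3 (0.16), opt3-2 shoot replicate 1 (0.18) or 2 (0.15), and with library size alone (0.10). Polyubiquitin genes are repeats of 1 unit, so their single values are uncertain.

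NAC53 has been described in Arabidopsis as an activator of NADPH oxidase genes, and a list of 4 such oxidases, 3 NAC relatives and 2 mitochondrial stress genes was set beside it. In shoots 2 of 9 rose (22.2%) and 1, RBOHD, fell (11.1%), and in roots 3 rose (33.3%) and 1, RBOHA, fell (11.1%). These oxidases are named after their values were seen. AOX1A (AT3G22370), the alternative oxidase, rose in both tissues (0.46 ± 0.08 and 1.22 ± 0.08, adjusted p = 0.000618 and 5.71e-07). NAC16 rose in shoots (1.05 ± 0.21, adjusted p = 0.00184), and NAC13 rose in roots from 24.5, 23.8 and 22.6 to 42.3, 46.9 and 48.3 CPM (0.96 ± 0.07, adjusted p = 2.24e-06).

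Likeness of pattern was described by Pearson's r over the 12 libraries between a gene's log2 CPM, centred within each tissue, and the mean of the 41 subunits. The libraries share 2 genotypes and their depths, so r mostly records the genotype difference in each tissue. Of the 41 subunits, 30 had r above 0.8, and the median was 0.905. RPT5b (-0.376), RPT5a (-0.021), PAC1 (0.298) and RPN13 (0.300) were the lowest, and NAC53 and NAC78 had -0.141 and -0.011. Outside the members, the 5 most alike of 13773 genes were MAT3 (0.984), which encodes a methionine adenosyltransferase, AT5G42740 (0.980), XBCP3 (0.978), a cysteine protease, ASP2 (0.977), an aspartate aminotransferase, and VDAC3 (0.977), a porin of the outer mitochondrial membrane.

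The fold changes of members did not split by the promoter core in shoots. There 15 of 25 members with TGGGC fell and 10 of 16 without it, each with a median of -0.18. In roots 20 of 25 with it rose, with a median of 0.23, and 10 of 16 without it, with a median of 0.20. PAG1 and PAD1, printed above without and with the core, moved in the same direction in each tissue. Of the 4 members that passed in neither tissue, PAC1 and RPT5b held the core and RPT5a and RPN13 did not.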

How the data were processed

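The authors deposited whole-number read counts per gene, with 36 columns and no normalization. The sets of numbers that end the column names differed between the genotypes, and their meaning was not given. Any difference in handling that they stand for could not be told apart from genotype. Per the submitters' processing notes, TopHat2, edgeR and the TAIR10 genome were used, without versions. The counting tool and the handling of strand and of reads with several map positions were not given in the sources used here. Poly(A) RNA libraries were made with TruSeq kits, per the labels' protocols.

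Counts of the 3 technical replicates, whose variance was 1.02 to 1.06 times the Poisson value, were summed, which left 12 libraries (3 biological replicates in each of 4 groups; whether these were grown apart is not stated, so p-values measure the spread between these samples). Depths from 21262406 counts upward give every subunit at least 244 counts per library. edgeR 4.0.16 in R 4.3.3 was run with filterByExpr by group, TMM scaling and a group-means model over 12 libraries (8 residual degrees of freedom), with a robust quasi-likelihood F test and two-sided Benjamini-Hochberg adjustment over 21887 genes. The SE was obtained by dividing the log2 fold change by the square root of F. The fit was tested on simulated data with few changed genes and with changes larger than any genotype difference of the subunits. That test therefore does not measure how often changes of the subunits' size are called. CPM used the deposited counts and library sizes multiplied by TMM factors. Exon lengths, coding sequences and promoters came from RefSeq TAIR10.1, in which all 43 members were found by locus code. Of these members, 15 share exon bases with another gene, at most 16.1% of their exon bases (RPT1a).

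Members and lists were chosen with earlier results of these data known. Genes were named by a rule: both regulators, the highest and lowest fold change of each subcomplex in each tissue, the member pair that differed most, the 5 most alike genes (mean of 10 CPM or more, log2 of CPM plus 0.5), and the 2 smallest p-values of each further list per tissue. Of the shuttle factors, 1 gene is not reported here. Further members are named as parts of a full list or after their values were seen. Alternatives were RLE scaling, library size alone, DESeq2 1.42.0, no filter on low counts, the compared groups alone, a replicate block, each library left out, and technical replicate 1 alone. Summing the copies of a subunit was added after seeing the data.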

Additional observations from a re-analysis of the deposited data

Results flagged for a closer look

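Each result here was picked out because the difference between genotypes was not the same in roots and shoots, by edgeR's test of the root difference minus the shoot difference (adjusted p below 0.05). Values are on the log2 scale. Single genes are those chosen by the naming rule, and other genes with a called difference are left out unless stated. By subcomplex, 6 alpha, 7 beta, 7 RPT and 16 RPN subunits were called, each above 0, and no explanation was tested.

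In the core the values were 0.68 for PAD1, 0.35 for PAF1, 0.69 for PAG1, 0.44 for PBD1, 0.39 for PBF1 and 0.52 for PBG1. In the cap they were 0.72 for RPT2b, 0.21 for RPT6a, 0.35 for RPT6b, 0.28 for RPN1a, 0.88 for RPN5b and 0.78 for RPN9b. The call for RPT6a was lost when any of 6 libraries was left out, at 0.19 to 0.21. Among the other copies the values were 0.34 for PAB2, 0.41 for PAF2 and 0.80 for PBD2, while RPT1b had -1.15.

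Among related factors, UMP1a (0.41), DSK2A (0.20), DDI1 (0.63), UBQ14 (0.21) and UBA1 (0.38) were above 0 like the subunits. The call for UBQ14 was lost under 13 alternative settings (0.18 to 0.25) and that for DSK2A under 4 (0.17 to 0.23). ECM29 (-0.18), CDC48B (-0.97) and UBQ3 (-0.91) were below 0, and the call for ECM29 was lost under 15 settings, 11 of which left out 1 library (-0.20 to -0.10). Of the NAC relatives and their neighbours in that list, NAC13 (0.78) and AOX1A (0.76) were above 0 and NAC16 (-1.26) was below. Outside the naming rule, UPOX (3.2) and RBOHD (1.43) of the same list were also called above 0.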

How the results depend on the processing

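Over all alternatives run, 20 to 31 subunits fell in shoots, 21 to 31 rose in roots, and 31 to 37 had a called root minus shoot difference above 0. Summing copies gave 22, 23 and 28 of 33 positions, with DSS1, which has no member, among the 33 and among the falls. Relative to the median of all genes, the subunits' median stayed between -0.15 and -0.20 in shoots and between 0.20 and 0.25 in roots. With RLE scaling, 24.8% of all genes rose and 20.4% fell in shoots, where TMM gave 21.3% and 22.6%. Leaving out 1 library gave 20 to 26 falls in shoots, 21 to 30 rises in roots, 35 to 37 for the difference between tissues, 36 to 37 subunits higher in roots within opt3-2, and 5 to 11 higher and 7 to 10 lower in roots within wild type. The lowest of these, 5, came without wild type root replicate 1. With library size alone, 35 subunits were higher in wild type roots than shoots and 0 lower, as that scaling shifts the median of all genes. With technical replicate 1 alone, the fall of PBG1 in shoots did not pass (-0.15). No called direction reversed, and 9 results of named genes that did not pass, with values within 0.07 of 0, changed sign under a setting.

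Replicate numbers are shared by the groups in the labels. Deviations from the group mean had r from -0.306 to 0.129 over 18 pairs of samples with the same number. Over 36 pairs with different numbers, r ran from -0.378 to 0.389. With 3 libraries per group this cannot decide whether samples of the same number were paired, and the main model assumed no pairing. With the replicate block, 24 subunits fell in shoots, 27 rose in roots, 36 differed between tissues, 8 were higher and 8 lower in wild type roots, and 36 were higher in opt3-2 roots. Over 108 results of named genes, the block lost 5 calls, the run without a filter 4 and technical replicate 1 alone 10. Every member subunit had 244 counts or more in each library, but depth bore on the number of calls. With technical replicate 1 alone, and thus fewer counts, 20 subunits fell in shoots (25 with all counts) and 21 rose in roots (30). The difference between tissues was then called for 31 (36 with all counts). RPN12b, at under 1 CPM, and the low root markers in shoots are imprecise.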
